A study of Mus musculus with 136 samples.

Results

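The 138 genes described here lost most of their chromatin-associated RNA within 2 h of lipid A in wild-type mouse bone marrow-derived macrophages and still had little of it at 6 h. They were chosen from the mean level over the 9 wild-type libraries at each time, in RPKM, reads divided by the gene's length and the library's depth. A gene was kept if its mean was at least 2 RPKM at 0 h and if its mean plus 0.5 was at most 0.33 of the 0 h value at both 2 h and 6 h. Of the 15196 genes in the table, 1959 reached 2 RPKM at 0 h, and the 138 genes are 7.04% of those. Because the wild-type levels at 0, 2 and 6 h chose the genes, they are given as a description, with no test of the change since 0 h. That change was tested in the knockout libraries and in the other experiments, which the choice did not use. Where knockouts are set against wild types at 0, 2 and 6 h, the wild types are among the libraries that chose the genes. Just inside the limit, Tpra1, Kcnq1ot1 and Metrnl had 32.4%, 32.6% and 33.0% of their 0 h level left at the higher of the 2 times. Just outside it were Arrdc2 with 33.0%, Snx30 with 33.1% and Gm15441 with 33.3%.

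The macrophages came from Nfkb1-/-, Nfkbiz-/-, Bcl3-/- or Nfkbid-/- mice, or from wild-type mice whose strain the labels spell C57/B16, and were grown from bone marrow for 6 days in medium with 8% M-CSF. Each knockout was sequenced beside wild-type libraries of its own, at 0, 0.5, 1, 2 and 6 h of lipid A, with 3 replicates of each genotype and time in the Nfkb1 and Nfkbid series and 2 in the Nfkbiz and Bcl3 series. Replicate 1 of the Nfkbid series stood apart and was not used in the choice of genes or in the tests. Chromatin RNA was also taken from cells given TNFa for 0.5 to 6 h and from cells given lipid A for 15, 30 or 60 min after an inhibitor labelled ERKi, or after DMSO. RNA labelled polyA came from cells given lipid A or TNFa for 0.5 to 6 h, beside 1 unstimulated library. It also came from J2 BMDM, a name that the sources used here do not explain, at 0 h and 2 h of lipid A: 2 cultures labelled Nfkb1-/-, Nfkb2-/-, 1 labelled Nfkb1-/- and 1 wild type. A further set of polyA libraries compared cells labelled IkBz OE and Control after 2 h of lipid A, after 2 h of TNFa and unstimulated, with 1 library each. The labels describe chromatin extraction for the polyA libraries as well, so whether these hold whole-cell RNA is unsure. The labels give no age of the mice and do not say whether replicates came from separate animals or cultures, so p-values measure the spread between these samples, which may be technical.

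Lipid A is the part of bacterial lipopolysaccharide that Toll-like receptor 4 recognises, and its signal drives NF-kB into the macrophage nucleus. The Nfkb1 product p50 binds DNA but carries no activation domain of its own, and the nuclear IkB proteins encoded by Nfkbiz, Bcl3 and Nfkbid bind p50 there. Along with the induction of inflammatory genes, this signal is known to lower the transcription of many genes of the resting macrophage. Chromatin-associated RNA is rich in transcripts still being made, so it follows transcription more closely than mature mRNA, which lags where the transcript is stable.

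Of the 138 genes, 5 encode microRNAs, and the table's values for them are RNA from the hairpin's own span, not mature microRNA. Their mature sequences are shown because these are the shortest products that the repressed genes make. All 5 were matched in RefSeq (GRCm38.p6), and the capitals mark the seed, bases 2 to 8, the stretch that pairs with target mRNAs. The 6 sequences had 6 different seeds.
mmu-miR-223-3p: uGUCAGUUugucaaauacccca
mmu-miR-223-5p: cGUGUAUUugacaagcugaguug
mmu-miR-511-3p: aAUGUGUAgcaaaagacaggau
mmu-miR-3971: cUCCCCACcccuguaccaguga
mmu-miR-5114: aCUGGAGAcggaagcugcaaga
mmu-miR-5134-3p: aCGGGUGGcccucuuucugcag
Mir223, on chromosome X at 93438156 to 93438265 (mm9), is the microRNA best known for its abundance in myeloid cells. Mir511, on chromosome 2 at 14182630 to 14182708, lies inside the mannose receptor gene Mrc1, Mir5114 lies inside Scd2 and Mir5134 inside Ccnf, so their reads cannot be told apart from those of the host transcript. In all, 25 of the 138 genes overlap another gene of the table and 14 of these overlap another of the 138, among them Mir223 with F630028O10Rik, Ang with Rnase4 and Tnfsf12 with Tnfsfm13. Nlrp1b and Nlrp1c-ps are near-copies whose reads could be split between them.

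The 113 chromatin libraries held between 7.86M and 45.3M counted reads (M, 1000000 reads), with a median of 28.8M, as recovered from the step between low values. The 10 libraries of replicate 1 in the Nfkb1 series were the shallowest, at 7.86M to 16.2M. In the Nfkbid series, Malat1 stood at 6.92 to 19.4 RPKM in the libraries of replicate 1 but at 823 to 1640 RPKM in the others. Nfkb1 RNA at 2 h was 6.16 to 12.7 RPKM in the libraries labelled Nfkb1-/- and 9.35 to 11.3 RPKM in their wild types. Bcl3 RNA at 2 h was 14.8 to 28.6 RPKM in the libraries labelled Bcl3-/- and 9.85 to 11.4 RPKM in their wild types. RNA of the targeted gene therefore did not mark these libraries as knockouts, and Nfkbiz and Nfkbid themselves are not analysed here. The 5 macrophage markers, of which Csf1r is 1 of the 138 genes, summed to 16.0 to 68.7 RPKM in knockout and 25.8 to 66.7 RPKM in wild-type libraries at 0 h. At 1 h they summed to 10.4 to 21.7 RPKM in knockout and 8.27 to 27.5 RPKM in wild-type libraries, and at 6 h to 21.9 to 44.8 RPKM and 25.6 to 43.1 RPKM. Neutrophil, lymphocyte, dendritic cell and erythroid markers each summed to less than 1 RPKM in every library of both genotypes and at every time. The 5 mast cell and basophil markers summed to 0.0396 to 0.219 RPKM in knockout and 0.0517 to 0.183 RPKM in wild-type libraries at 0 h, and to 0.263 to 2.11 RPKM in knockout and 0.912 to 2.49 RPKM in wild-type libraries at 2 h. That sum at 2 h was mostly Hdc, which encodes histidine decarboxylase, with a median of 0.926 RPKM in knockout and 1.70 RPKM in wild-type libraries; the other 4 had medians under 0.1 RPKM. The 7 stromal markers summed to 0.0303 to 1.46 RPKM in knockout and 0.0283 to 0.616 RPKM in wild-type libraries at 0 h, and to 0.286 to 2.76 RPKM and 0.539 to 0.809 RPKM at 2 h. The part of other cells in the results was not tested.

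In the 9 knockout libraries per time, which played no part in the choice, every one of the 129 genes that passed a filter of 1 RPKM was at least 2-fold lower than at 0 h, both at 2 h and at 6 h (limma on log2(RPKM + 0.5), Benjamini-Hochberg adjusted p below 0.05). With no filter, 138 of 138 had fallen at both times. The background was 21.6% of the 3898 genes tested at 2 h and 14.3% at 6 h. The median difference of the 129 genes from 0 h was -2.32 at 2 h and -2.09 at 6 h on the log2 scale, against -0.39 and -0.28 over all genes tested. All 9 knockout libraries lay below all 9 at 0 h for 110 of the 138 genes at 2 h and for 100 at 6 h (background 14.3% and 8.23%). The other 9 genes, Alox5ap, Dusp6, Fbxo5, Fcrls, Igfbp4, Mxd4, Rgs10, Skp2 and Zfp395, did not pass the filter. Because the libraries are bulk RNA, fewer cells of a kind and less RNA per cell cannot be told apart. Fold changes on the log2(RPKM + 0.5) scale understate the change of genes near the floor.

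**Figure D1:**
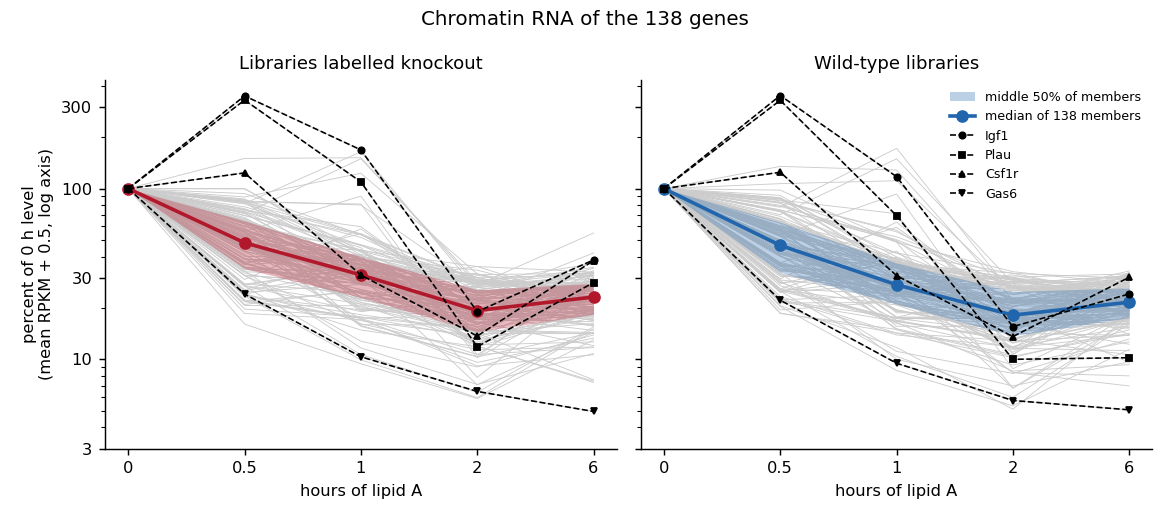
Percent of the 0 h level left (mean RPKM plus 0.5, log axis) against hours of lipid A, for the libraries labelled knockout on the left and the wild types on the right, 9 libraries per time. Grey lines are the 138 genes, the band is the middle 50% of them and the thick line their median; Igf1 and Plau climb above 100% at 0.5 h before falling, while Gas6 falls from the start.

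Surface receptors and adhesion proteins made up 14 of the 138 genes, and 13 of these were tested in the knockout libraries and had fallen at 2 h and 6 h. Stab1 (chromosome 14, 31952203 to 31981827, mm9) encodes stabilin-1, a scavenger receptor of resting macrophages. Its lowest, median and highest levels over the 9 knockout libraries were 21.6, 47.6 and 80.9 RPKM at 0 h, 1.45, 3.25 and 5.32 RPKM at 2 h, and 1.91, 6.48 and 13.5 RPKM at 6 h. No knockout library at 2 h or 6 h reached the lowest 0 h library. The difference from 0 h was -3.86 ± 0.27 at 2 h (SE; limma adjusted p = 1.4e-16) and -2.89 ± 0.27 at 6 h (limma adjusted p = 2.2e-12). In wild-type libraries Stab1 ran from 34.6 to 77.4 RPKM at 0 h, from 1.47 to 5.11 RPKM at 2 h and from 3.88 to 14.8 RPKM at 6 h.

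Csf1r encodes the receptor for M-CSF, the factor that keeps these cells alive. Its knockout levels were 10.8, 21.1 and 34.0 RPKM (lowest, median, highest) at 0 h, 16.8, 27.8 and 48.0 RPKM at 0.5 h, 1.23, 2.75 and 3.87 RPKM at 2 h, and 2.78, 6.83 and 21.9 RPKM at 6 h. Its difference at 0.5 h did not pass the test (0.30 ± 0.27, limma adjusted p = 0.34), and it fell by 2.89 ± 0.27 at 2 h (limma adjusted p = 1.2e-12), and some 6 h libraries overlapped the 0 h range. Mrc1, the mannose receptor CD206, had knockout levels of 0.695, 7.76 and 16.3 RPKM at 0 h and 0.0769, 0.781 and 4.74 RPKM at 6 h. The groups overlapped, and the difference at 6 h was -2.24 ± 0.41 (limma adjusted p = 9.9e-06). Lpar6, a receptor for lysophosphatidic acid, fell by 2.55 at 2 h and 2.19 at 6 h, and the lectin-like receptor gene Cd93 fell by 2.13 and 1.90.

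Secreted factors numbered 11. Gas6 (chromosome 8, 13465374 to 13494535, mm9), a ligand of the receptors Axl and Mertk that bridges them to dying cells, fell the furthest of the 129 genes at 6 h. Its knockout levels were 4.75, 14.3 and 24.5 RPKM at 0 h, 1.09, 3.19 and 5.54 RPKM at 0.5 h, 0.213, 0.426 and 1.09 RPKM at 2 h, and 0.0692, 0.305 and 0.388 RPKM at 6 h. The highest 6 h library stood below the lowest 0.5 h library. The difference was -3.89 ± 0.22 at 2 h (limma adjusted p = 1.7e-19) and -4.25 ± 0.22 at 6 h (limma adjusted p = 1.2e-20). In wild-type libraries Gas6 ran from 10.4 to 22.5 RPKM at 0 h, from 0.186 to 0.857 RPKM at 2 h and from 0.144 to 0.652 RPKM at 6 h.

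Plau, the urokinase plasminogen activator, and Igf1, insulin-like growth factor 1, rose before they fell. Plau in knockout libraries had lowest, median and highest levels of 1.74, 10.1 and 22.1 RPKM at 0 h, 9.73, 29.7 and 90.8 RPKM at 0.5 h, 0.0946, 0.58 and 1.84 RPKM at 2 h, and 0.25, 1.3 and 7.83 RPKM at 6 h. Its difference from 0 h was 1.88 ± 0.41 at 0.5 h (limma adjusted p = 0.00012) and -2.81 ± 0.41 at 2 h (limma adjusted p = 9.2e-08). Igf1 stood at 1.24, 3.41 and 4.66 RPKM at 0 h, 3.76, 10.9 and 27.6 RPKM at 0.5 h, and 0.0578, 0.137 and 0.662 RPKM at 2 h in the knockout libraries. It rose by 1.65 ± 0.32 at 0.5 h (limma adjusted p = 1.5e-05) and fell by 2.39 ± 0.32 at 2 h (limma adjusted p = 9.4e-09). The gene for the secreted protein Metrnl had knockout medians of 16.0, 25.3, 26.4, 3.83 and 5.1 RPKM at 0, 0.5, 1, 2 and 6 h. Its differences from 0 h were 0.59 at 0.5 h (limma adjusted p = 0.08) and -1.997 at 2 h (limma adjusted p = 1.3e-07). Timp2, an inhibitor of matrix metalloproteinases, fell by 2.27 at 2 h, and Tnfsf12, which encodes the cytokine TWEAK, by 2.40.

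**Figure D2:**
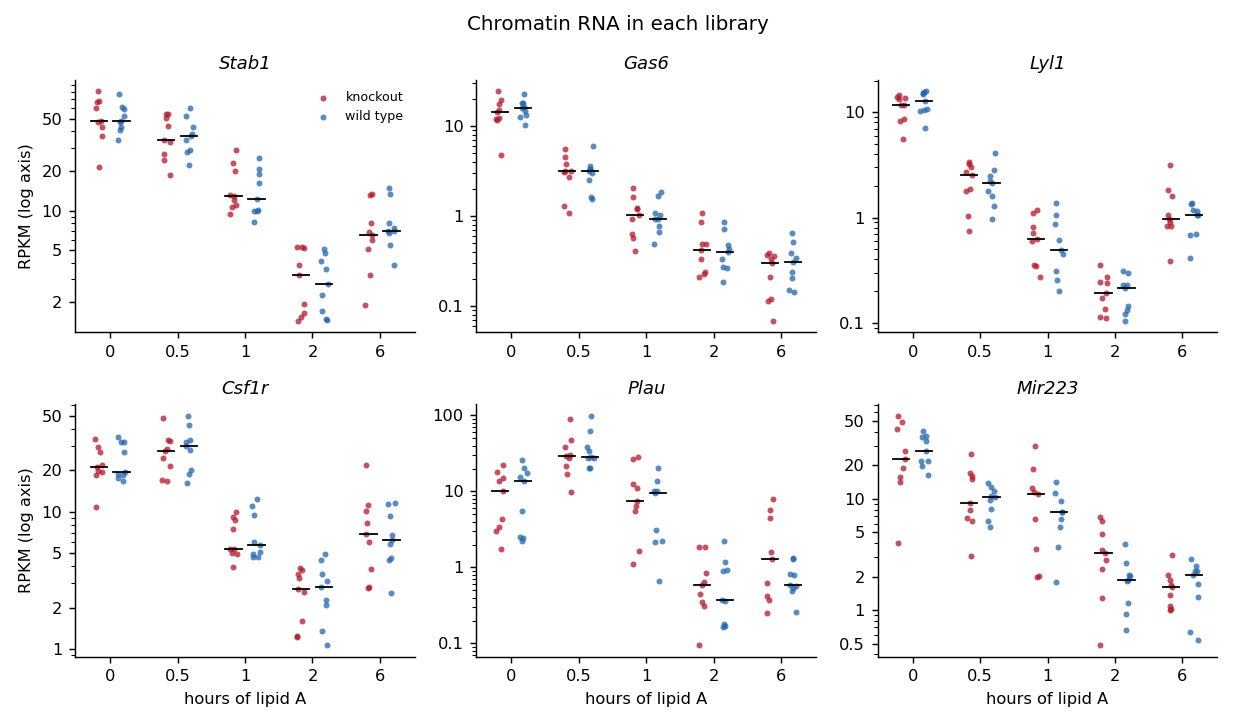
RPKM (log axis) of 6 genes in each chromatin library against hours of lipid A, with knockout libraries in red to the left of wild types in blue, and a bar at each median of 9 libraries. Stab1, Gas6, Lyl1, Csf1r and Mir223 fall in both genotypes, and Plau is highest at 0.5 h.

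Transcription factors and chromatin regulators numbered 11, of which 9 were tested and had fallen at both times. Lyl1 (chromosome 8, 87225356 to 87228615, mm9), a basic helix-loop-helix factor of blood cells, fell the furthest of the 129 genes at 2 h. Its knockout levels were 5.55, 11.7 and 14.6 RPKM at 0 h, 0.749, 2.55 and 3.38 RPKM at 0.5 h, 0.111, 0.192 and 0.352 RPKM at 2 h, and 0.391, 0.975 and 3.12 RPKM at 6 h. Every knockout library from 0.5 h on lay below every one at 0 h. The difference was -4.02 ± 0.21 at 2 h (limma adjusted p = 9.6e-21) and -2.78 ± 0.21 at 6 h (limma adjusted p = 3.6e-15), so part of the level had come back. Irf2bp2, a transcriptional corepressor, had knockout medians of 10.5, 7.21, 3.69, 0.281 and 2.14 RPKM at 0, 0.5, 1, 2 and 6 h. It fell by 3.69 ± 0.24 at 2 h (limma adjusted p = 2.1e-17) and by 1.96 ± 0.24 at 6 h (limma adjusted p = 3.1e-09). Foxo3, a forkhead factor that acts when growth factor signalling is low, fell by 2.74 at 2 h and 1.73 at 6 h. The ETS factor gene Fli1 fell by 2.37 and 2.09, and Mnt, which dimerises with MAX, fell by 2.68 and 1.69.

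Cell cycle, replication and chromosome genes were the largest named group, with 17 genes, of which 15 were tested and had fallen at both times. Their median difference was -1.74 at 2 h and -2.07 at 6 h. Top2a, which encodes the DNA topoisomerase of dividing cells, had knockout levels of 1.31, 4.25 and 7.06 RPKM at 0 h, 0.195, 0.813 and 1.57 RPKM at 2 h, and 0.0435, 0.23 and 0.86 RPKM at 6 h. The 6 h libraries all lay below the 0 h libraries, and the difference was -2.46 ± 0.27 (limma adjusted p = 2e-10). Cdk1, the kinase that drives entry into mitosis, had knockout levels of 0.93, 2.43 and 4.3 RPKM at 0 h, 0.149, 0.473 and 0.81 RPKM at 2 h, and 0.0708, 0.206 and 0.776 RPKM at 6 h. It fell by 1.59 ± 0.22 at 2 h (limma adjusted p = 2.3e-08) and by 1.98 ± 0.22 at 6 h (limma adjusted p = 2.1e-10). Kif23, a kinesin of cytokinesis, fell by 2.43 and 2.69, and Aurkb, a mitotic kinase, by 1.74 and 2.24. Foxm1, a transcription factor of mitotic genes, fell by 1.42 and 2.09. These genes start low, so a few reads weigh more in them than in Stab1 or Csf1r.

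Genes of lipid metabolism and lipid mediators numbered 10, and 9 of them were tested and fell at both times. Cerk (chromosome 15, 85969531 to 86016571, mm9), ceramide kinase, had knockout levels of 3.82, 11.6 and 13.9 RPKM at 0 h, 0.131, 0.19 and 0.284 RPKM at 2 h, and 0.83, 1.08 and 1.76 RPKM at 6 h. The groups did not overlap, and it fell by 3.89 ± 0.18 at 2 h (limma adjusted p = 1.1e-22) and by 2.64 ± 0.18 at 6 h (limma adjusted p = 1.1e-16). Scd2, a stearoyl-CoA desaturase, fell by 2.93 and 2.82, although its 0 h level ranged from 0.552 to 18.1 RPKM. Fasn, fatty acid synthase, fell by 1.86 and 2.32, and Fads1, a fatty acid desaturase, by 2.43 and 2.34. Hpgds (chromosome 6, 65067287 to 65094724, mm9), the prostaglandin D synthase of blood cells, fell by 2.93 ± 0.37 at 2 h (limma adjusted p = 2.6e-09) and by 2.12 ± 0.37 at 6 h (limma adjusted p = 3.5e-06). Nceh1, a cholesteryl ester hydrolase, fell by 2.13 and 1.29.

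Lysosomal and glycan-processing enzymes numbered 9, all of them tested and fallen at both times. Hexa, a subunit of beta-hexosaminidase, had knockout levels of 4.06, 12.2 and 16.8 RPKM at 0 h, 1.02, 1.57 and 2.2 RPKM at 2 h, and 1.41, 2.0 and 3.61 RPKM at 6 h. No library at 2 h or 6 h reached the lowest 0 h library, and Hexa fell by 2.41 ± 0.20 at 2 h (limma adjusted p = 1.9e-14). Sgsh and Naglu, which degrade heparan sulfate, fell by 2.44 and 2.17 at 2 h. Among the 8 genes of other metabolism and transport, Slc40a1 encodes ferroportin, the iron exporter of macrophages. Its knockout levels were 1.11, 3.69 and 7.7 RPKM at 0 h, 0.165, 0.272 and 0.933 RPKM at 0.5 h, and 0.0517, 0.105 and 0.352 RPKM at 6 h. It was below every 0 h library by 0.5 h and fell by 2.25 ± 0.20 then (limma adjusted p = 7.5e-13) and by 2.68 ± 0.20 at 6 h (limma adjusted p = 4.8e-15). Pdxk, pyridoxal kinase, fell by 2.38 at 0.5 h and 3.29 at 2 h. The sulfate transporter gene Slc26a11 fell by 1.25 at 0.5 h and 3.32 at 2 h.

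The RNA-binding group held Zfp36l1 and Zfp36l2, which bind AU-rich elements of mRNAs, and the splicing factor gene Srsf2. Zfp36l2 fell by 2.22 at 0.5 h and 2.71 at 2 h, whereas Zfp36l1 differed from 0 h by -0.09 at 0.5 h (limma adjusted p = 0.78) and fell by 2.56 at 2 h. Srsf2 fell by 2.30 at 2 h and by 1.89 at 6 h. Nlrp1b, an inflammasome sensor, fell by 2.03 and 2.20. Among the noncoding RNA genes, Mir223 had knockout levels of 4.01, 22.8 and 55.9 RPKM at 0 h, 0.482, 3.28 and 6.94 RPKM at 2 h, and 0.993, 1.61 and 3.13 RPKM at 6 h. Its 6 h libraries all lay below its 0 h libraries, and it fell by 3.46 ± 0.41 (limma adjusted p = 7.9e-10). F630028O10Rik, the transcript that overlaps it, fell by 3.56 at 6 h. Mir3971 fell by 3.86 at 2 h, and Mir5114 fell by 3.06 at 2 h, when its host Scd2 fell by 2.93. Signalling genes included Camk1, a calcium- and calmodulin-dependent kinase, which fell by 3.41 at 2 h, and Dusp6, a phosphatase of ERK that did not pass the filter here. A further 21 genes were given no role, among them Tmem273, which fell by 3.77 at 2 h.

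The onset differed between the genes. At 0.5, 1, 2 and 6 h the median gene had 46.5%, 27.4%, 18.2% and 21.6% of its 0 h level left in wild-type libraries, against 67.9%, 71.8%, 66.2% and 74.8% over the 1959 genes at 2 RPKM or more. At 0.5 h, 36 of the 138 genes were already at or below 0.33 of their starting level, and 5 were above that starting level. Of the 1959 genes, 139 were at or below 0.33 and 453 were above their starting level. In the knockout libraries, 63 of the 129 tested genes had fallen at 0.5 h (background 16.6%) and 112 at 1 h (background 16.5%). Plau and Igf1 were the 2 that had risen at 0.5 h (background 7.52%), and 0 had risen 2-fold at 1 h by limma (background 8.8%), at an adjusted or an unadjusted p below 0.05. The count at 0.5 h came down to 34 when each library was centred on its median gene, and was 96 in the Bcl3-/- libraries taken alone (background 30.7%).

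By role, 2 of the 13 tested receptor genes had fallen at 0.5 h in the knockout libraries and 10 at 1 h. The share over all 3898 genes tested, for this and the other roles, was 16.6% at 0.5 h and 16.5% at 1 h. The receptor count at 0.5 h was thus near the background. Of the 10 tested secreted factors, 6 had fallen at 0.5 h and 5 at 1 h. In wild-type libraries the median receptor gene had 63.3% of its 0 h level at 0.5 h, while the median lipid metabolism gene had 28.8% and the median cell cycle gene 47.7%. Of the tested lipid metabolism genes, 6 of 9 had fallen in the knockout libraries by 0.5 h, and of the other metabolism and transport genes 7 of 8. Of the 15 tested cell cycle genes, 5 had fallen by 0.5 h and 15 by 1 h. These groups were drawn after the values were seen, and the differences between them were not tested. Longer genes kept slightly more at 0.5 h: in knockout libraries the median was 59.1% for the 41 genes of 40 kb or more, 45.2% for the 54 genes of 10 to 40 kb and 48.0% for the 37 genes from 0.2 to 10 kb. Across 132 genes, Pearson's r of log span with the percent left at 0.5 h was 0.21 and Spearman's rho 0.25, with all genes sharing the same libraries, and both were close to 0 at later times.

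The levels at 0.5 h and 1 h were not in the rule. They lie between the 0 h and 2 h wild-type levels that chose the genes, so an excess of falls there was set in part by the choice. Over this step, 41 of the 135 genes tested in wild-type libraries fell at least 2-fold (limma adjusted p below 0.05, background 4.56% of 4057 genes). Another 3 rose (background 6.01%). The median difference was -0.71, against 0.10 over all genes tested. The falls of Plau (-2.55), Csf1r (-2.01), Man1c1 (-1.91), Igf1 (-1.90), Mir511 (-1.89) and Tmem273 (-1.70) were the largest, and Man1c1 encodes a Golgi mannosidase. The 3 that rose were Cd9 (1.09), a tetraspanin gene, Tnfsf12 (1.03) and Ttyh2 (1.02), a gene of the tweety family of membrane proteins. In the knockout libraries 34 genes fell over the same step (background 3.39%).

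From 2 h to 6 h, 12 of the 129 genes rose again in the knockout libraries (background 5.36%), and 0 fell by limma (background 2.15%), also at an unadjusted p below 0.05 with a 2-fold fall. The rises were 1.73 for Irf2bp2, 1.59 for Mast3, 1.31 for Bbs10, 1.29 for Csf1r, 1.25 for Cerk, 1.24 for Lyl1, 1.16 for Cdk18, 1.09 for Tpra1, 1.06 for Cd300c2, 1.05 for Lfng and Mir3971, and 1.02 for Foxo3. These 12 genes were therefore lowest at 2 h, while Gas6, Top2a, Mir223 and Slc40a1 were as low or lower at 6 h.

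Whether p50 or a nuclear IkB protein alters the repression was asked by setting each knockout against the wild types of its own series. In the Nfkb1 series, 1 of 137 tested genes differed: Lfng, a glycosyltransferase that modifies Notch receptors, was lower at 0.5 h (background 0.0663% of 4523 genes). Lfng (chromosome 5, 141083295 to 141091499, mm9) had 0.326, 0.335 and 0.425 RPKM in libraries labelled Nfkb1-/-, against 1.12, 1.87 and 2.05 RPKM in wild types. The 2 groups did not overlap, and the difference was -1.31 ± 0.23 (SE; limma adjusted p = 0.0123). At 1, 2 and 6 h, 0 genes were called by limma, where the background was 0.597%, 0.376% and 0.221% lower and 0.0442%, 0% and 0.0884% higher. At an unadjusted p below 0.05 with a 2-fold difference, 1 was lower at 1 h, and 1 at 2 h and 3 at 6 h were higher. The call of Lfng was lost when knockout replicate 2 or 3, or wild-type replicate 2 or 3, was left out, with differences between -1.19 and -1.36. With the replicate number as a block, Cd9 was also called, lower at 1 h by 1.09 ± 0.25 (SE; limma adjusted p = 0.0125).

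In the Nfkbiz series, whose knocked-out gene encodes IkBz, 12 of 138 tested genes differed at 6 h, 6 lower and 6 higher in Nfkbiz-/- macrophages (background 3.62% lower and 1.84% higher of 4885 genes). With each library centred on its median gene, the counts were 3 lower and 11 higher. The median difference of the 138 genes at 6 h was -0.16, against -0.24 over all genes. Each of the 12 genes also met the rule with the wild types of this series left out. At 0.5 h, 0 genes were called by limma, and 1 was lower at an unadjusted p below 0.05. At 1 h Lfng was higher (background 0.123% higher and 0.553% lower), and at 2 h Hpgds was lower (background 1.19% lower and 0.184% higher).

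Lfng returned to about its starting level by 6 h in Nfkbiz-/- macrophages. Its replicates stood at 4.33 and 4.78 RPKM at 0 h in Nfkbiz-/- libraries and at 5.7 and 4.39 RPKM in wild types. At 1 h they stood at 4.44 and 2.69 RPKM in Nfkbiz-/- libraries and at 1.08 and 0.853 RPKM in wild types. At 6 h they stood at 5.33 and 3.91 RPKM in Nfkbiz-/- libraries and at 1.1 and 0.3 RPKM in wild types. The return followed a low at 2 h of 0.665 and 0.57 RPKM in Nfkbiz-/- libraries, against 0.221 and 0.17 RPKM in wild types. The difference was 1.44 ± 0.28 at 1 h (limma adjusted p = 0.0242) and 2.16 ± 0.28 at 6 h (limma adjusted p = 0.000186). The change since 0 h also differed at 6 h between the genotypes, by 2.29 ± 0.40 (limma interaction, adjusted p = 0.00442), as it did for 3 other genes of the 138 (background 1.13% higher and 1.82% lower).

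Arl4c (chromosome 1, 90594801 to 90598766, mm9), a small G protein of the ADP-ribosylation factor family, showed the same order at 6 h. It had 1.05 and 2.07 RPKM in Nfkbiz-/- libraries, against 0.192 and 0.234 RPKM in wild types. At 0 h it had 2.33 and 2.35 RPKM in Nfkbiz-/- libraries, against 3.21 and 2.72 RPKM in wild types. It was higher by 1.49 ± 0.21 at 6 h (limma adjusted p = 0.000378), and the interaction was 1.77 ± 0.30 (limma adjusted p = 0.00350). Metrnl had 12.4 and 12.9 RPKM at 6 h in Nfkbiz-/- libraries, against 5.93 and 6.26 RPKM in wild types. That difference, 0.99 ± 0.18 (limma adjusted p = 0.00266), just missed 2-fold, and its interaction was 1.01 ± 0.26 (limma adjusted p = 0.0449). Zfp36l1 had 1.54 and 0.786 RPKM at 6 h in Nfkbiz-/- libraries, against 0.268 and 0.264 RPKM in wild types (difference 1.08, limma adjusted p = 0.00505). Zfp36l2 had 2.61 and 1.71 RPKM in Nfkbiz-/- libraries, against 1.09 and 0.403 RPKM in wild types (1.13, limma adjusted p = 0.0142). Plau was higher by 2.07 at 6 h (limma adjusted p = 0.0498), with 4.46 and 7.83 RPKM in Nfkbiz-/- libraries and 0.804 and 1.31 RPKM in wild types. Mir511 was higher by 2.46 (limma adjusted p = 0.0118). Its host gene Mrc1 had 2.86 and 4.74 RPKM in Nfkbiz-/- libraries and 0.443 and 1.58 RPKM in wild types, a difference of 1.58 (limma adjusted p = 0.0724). With the replicate number as a block, Mrc1 was called (limma adjusted p = 7.57e-05), and so was Stab1, lower by 1.32 (limma adjusted p = 0.00305).

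Hpgds went the other way. Its replicates stood at 20.3 and 17.3 RPKM at 0 h in Nfkbiz-/- libraries and at 15.9 and 16.9 RPKM in wild types. At 2 h they stood at 0.323 and 0.34 RPKM in Nfkbiz-/- libraries and at 1.31 and 1.48 RPKM in wild types, and at 6 h at 0.936 and 1.0 RPKM in Nfkbiz-/- libraries and at 3.66 and 4.19 RPKM in wild types. Both Nfkbiz-/- replicates lay below both wild types at 2 h and at 6 h. The difference was -1.18 ± 0.24 at 2 h (limma adjusted p = 0.0140) and -1.59 ± 0.24 at 6 h (limma adjusted p = 0.000598), and the interaction at 6 h was -1.78 ± 0.34 (limma adjusted p = 0.00787). Srsf2 was lower by 1.36 at 6 h (limma adjusted p = 0.0186), with 4.12 and 4.27 RPKM in Nfkbiz-/- libraries and 14.2 and 9.35 RPKM in wild types. The cell cycle genes Top2a (-1.13, limma adjusted p = 0.0444), Foxm1 (-1.07, limma adjusted p = 0.0494) and Cdk1 (-1.04, limma adjusted p = 0.0340) were lower. Mir5134, whose reads cannot be told from those of its host Ccnf, was at -1.46 (limma adjusted p = 0.0204). In the wild types the replicates of these were far apart: Top2a had 0.27 and 0.11 RPKM in Nfkbiz-/- libraries and 1.84 and 0.463 RPKM in wild types, and Cdk1 had 0.206 and 0.0736 RPKM in Nfkbiz-/- libraries and 1.29 and 0.46 RPKM in wild types. Without wild-type replicate 1 the differences were -0.49 for Top2a, -0.44 for Foxm1, -0.59 for Cdk1 and -0.82 for Mir5134. Lfng, Arl4c and Hpgds were called at 6 h under every alternative tried for that difference, leaving out each replicate included. The other 9 genes lost their 6 h call without at least 1 of the 4 replicates, and so did Lfng at 1 h, Hpgds at 2 h and the 4 interactions, with no change of sign.

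**Figure D3:**
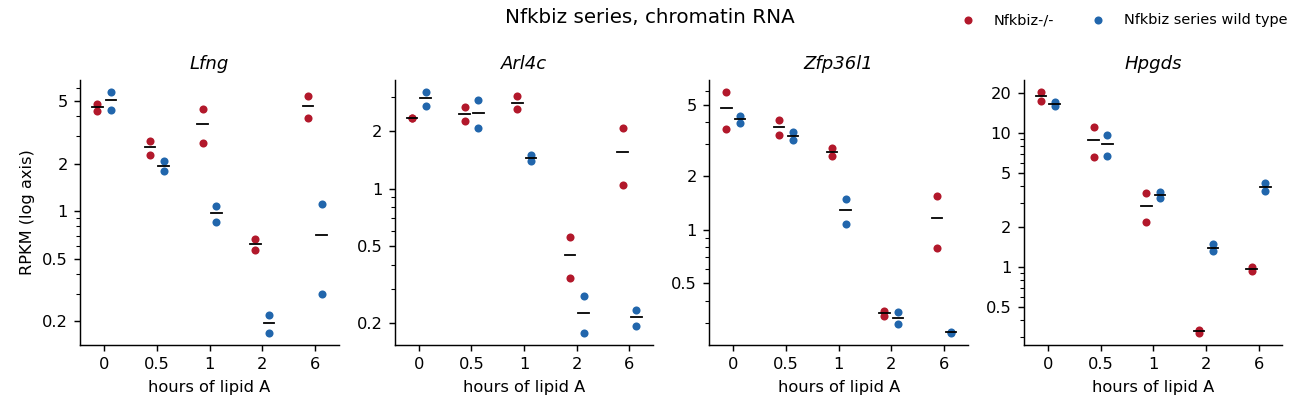
RPKM (log axis) of 4 genes in each library of the Nfkbiz series against hours of lipid A, Nfkbiz-/- in red to the left of wild types in blue, 2 libraries each, with a bar at the mean. At 6 h Lfng, Arl4c and Zfp36l1 stand higher in Nfkbiz-/- libraries, and Hpgds stands lower.

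In the Bcl3 series, 0 of 138 genes differed at any time by limma, and the background was 0% of 4740 genes. At an unadjusted p below 0.05 with a 2-fold difference, 3 genes were lower at 0.5 h and 0 at the later times. Replicate 2 of Bcl3-/- at 6 h stood above the other knockout libraries in its median level over the 138 genes. Replicate 1 of Bcl3-/- was the lowest knockout library at 0.5 h, at 0.27 on the log2(RPKM + 0.5) scale, against 0.82 to 1.58 in the others. Leaving either out leaves 1 Bcl3-/- library per time, so calls without them are not relied on here. Their number depended on which Bcl3-/- replicate was left out, so the count of 0 was not stable. In the Nfkbid series, with replicates 2 and 3, 0 of 138 genes differed at any time by limma (background 0% of 4871 genes), and 0 did so at an unadjusted p below 0.05 with a 2-fold difference. With each series taken alone, 128 genes in Nfkb1-/- (background 14.2%), 138 in Nfkbiz-/- (25.6%), 137 in Bcl3-/- (28.6%) and 131 in Nfkbid-/- libraries (20.3%) had fallen at 2 h. The 4 series differ in the spread between replicates: the median residual SD was 0.41 in the Nfkb1, 0.19 in the Nfkbiz, 0.32 in the Bcl3 and 0.33 in the Nfkbid series, so that a difference of the same size is easier to call in the Nfkbiz series.

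TNFa is a cytokine that acts through its own receptors and also drives NF-kB. Fewer of the genes were past a 2-fold fall on chromatin after TNFa than after lipid A. They were chosen for their fall under lipid A, so this was set in part by the choice. With 1 library per time there is no test. After 0.5 h, 38 of the 138 genes were past it (background 4.43%), and after 1, 2 and 6 h the counts were 11, 21 and 23 (background 1.57%, 1.57% and 2.04%). The background holds 3434 genes at 1 RPKM or more, and 115 of the 138 are among them. With a pseudocount of 0.1 in place of 0.5 they were 23, 40 and 44, and with 1 they were 11 at 2 h and 15 at 6 h. The median difference from 0 h was -0.60, -0.35, -0.63 and -0.67 over the 4 times. Gas6 stood at 5.22, 1.42, 2.11, 0.858 and 0.478 RPKM at 0, 0.5, 1, 2 and 6 h of TNFa, so that it went on falling. Stab1 stood at 39.1, 28.3, 23.4, 20.7 and 22.8 RPKM at the same times. Csf1r stood at 18.9, 31.4, 21.5, 25.1 and 26.0 RPKM and was at no time below its 0 h level. Igf1 was listed at 2.89, 19.2, 3.32, 8.03 and 9.85 RPKM, with the early rise seen under lipid A but no fall below 0 h. Irf2bp2 stayed between 9.2 and 12.7 RPKM, and Lyl1 was at 3.08, 1.38, 3.04, 1.83 and 2.4 RPKM. Gas6 and Lyl1 started well below their 0 h medians in the knockout libraries, while Stab1 and Csf1r started nearer to theirs. With a pseudocount of 0.5, a low start limits the fall that can be seen.

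The polyA libraries of Control and IkBz OE cells allow the 2 stimuli to be set side by side in 1 fit, with IkBz OE and Control cells as the pair of samples. The fit holds 6 libraries and no true replicates. Its SEs and p-values treat any difference in response between the 2 kinds of cell as spread between samples. Lipid A at 2 h lowered 77 of 133 tested genes (limma; background 12.1% of 6268 genes) and TNFa lowered 9 (background 0.989%). The medians were -1.12 for lipid A and -0.43 for TNFa, against -0.41 and -0.16 over all genes. In the direct comparison, 46 genes were higher after TNFa than after lipid A (background 4.55%), with a median of 0.68, against 0.25 over all genes. Because the genes were chosen for a fall under lipid A, an excess in this direction was set in part by the choice. Lyl1 had 20.6 and 30.2 RPKM after TNFa, 1.24 and 2.96 RPKM after lipid A and 43.2 and 46.0 RPKM unstimulated, in Control and IkBz OE cells. The 2 stimuli differed by 3.38 ± 0.21 (limma adjusted p = 0.000852). Irf2bp2 had 26.8 and 23.5 RPKM after TNFa, 1.94 and 2.78 RPKM after lipid A and 28.6 and 24.4 RPKM unstimulated. It thus fell under lipid A and was near its starting level under TNFa, a difference of 3.18 (limma adjusted p = 0.00066). Zfp36l1 had 21.5 and 10.4 RPKM after TNFa, 2.19 and 1.69 RPKM after lipid A and 14.5 and 7.71 RPKM unstimulated, a difference of 2.67 (limma adjusted p = 0.0012).

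Of the 11 transcription factors and chromatin regulators, 11 had fallen under lipid A in these cells and 10 were higher after TNFa than after lipid A. The background was 12.1% and 4.55%. This was the largest share of any role, and the roles were drawn after the values were seen. The same counts were 10 and 7 of 14 signalling genes, 4 and 2 of 14 receptor genes, and 2 and 1 of 11 secreted factors. Differences between the roles were not tested. The 9 genes that TNFa lowered were Dusp6 (-2.88), Lpar6 (-1.87), 1700017B05Rik (-1.51), Zfp36l2 (-1.36), Zfp395 (-1.31), Tmem273 (-1.19), Pdxk (-1.09), Rassf3 (-1.03) and Tmem86a (-1.02). Dusp6 had 10.8 and 2.62 RPKM after TNFa, 1.39 and 1.25 RPKM after lipid A and 58.7 and 31.9 RPKM unstimulated. Stab1 had 217 and 105 RPKM after 2 h of lipid A and 376 and 160 RPKM unstimulated, so its polyA RNA had lost less than its chromatin RNA by then. Csf1r likewise had 361 and 362 RPKM after lipid A and 559 and 467 RPKM unstimulated. With 1 library of each kind, IkBz OE and Control cells cannot be compared beyond these values.

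**Figure D4:**
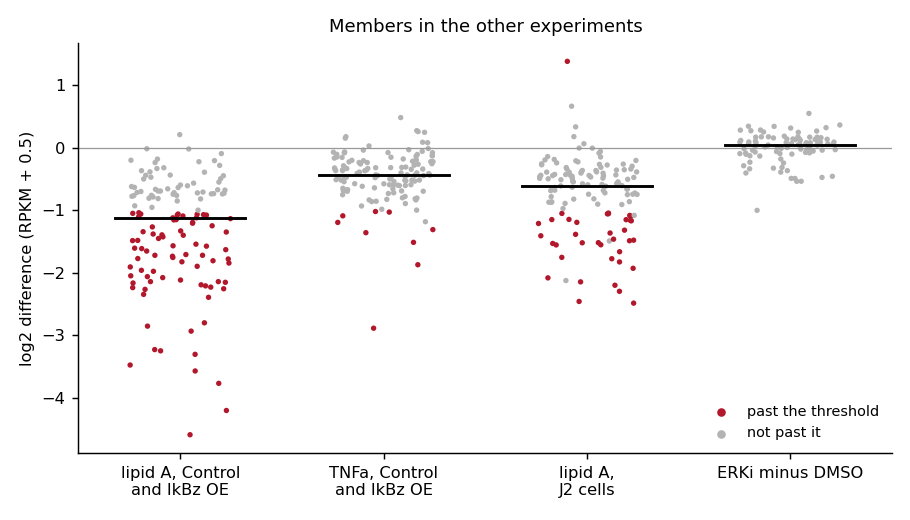
Log2 differences of RPKM + 0.5 for the genes tested in each experiment, from left to right 2 h of lipid A and 2 h of TNFa against unstimulated in Control and IkBz OE cells, 2 h of lipid A against 0 h in J2 cells, and ERKi minus DMSO over the lipid A times. Red points passed the threshold, grey points did not, and black bars are medians; 77, 9, 37 and 0 genes passed.

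In J2 BMDM, 36 of 130 tested genes were lower after 2 h of lipid A than at 0 h (limma; background 2.29% of 6107 genes) and 1 was higher (background 3.72%). The median difference was -0.61, against -0.14 over all genes. Lpar6 fell by 2.48, Lyl1 by 2.46, Tmem86a by 2.30 and Slc26a11 by 2.20. Lyl1 stood at 17.7 and 9.48 RPKM at 2 h in the 2 cultures labelled Nfkb1-/-, Nfkb2-/-, which had 42.7 and 84.0 RPKM at 0 h. It stood at 7.63 RPKM at 2 h and 42.0 RPKM at 0 h in the culture labelled Nfkb1-/-, and at 6.15 RPKM at 2 h and 57.1 RPKM at 0 h in wild type. Lyl1 was therefore low at 2 h in all 4 cultures, with 1 double-knockout culture the least so. The gene that was higher was Metrnl, by 1.38 (limma adjusted p = 0.0275), with 136 and 89.1 RPKM at 2 h in the double-knockout cultures and 57.1 and 24.4 RPKM at 0 h. Whether the genotypes of J2 cells differ was not tested, since 2 of the 3 have 1 culture. Of the 17 cell cycle genes, 0 were lower in J2 cells by limma at the threshold, and Cdk1, for one, differed by -0.09 (limma adjusted p = 0.813).

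The inhibitor labelled ERKi was set against DMSO as 1 mean difference over 0, 15, 30 and 60 min, with the time as a covariate. There was 1 library per arm and time, and the unstimulated pair at 0 min was part of the mean. A difference confined to some times is diluted in it, and the fall since 0 min was not tested between the arms. Of the 138 genes, 48 did not pass the filter. By limma, 0 of 90 tested genes differed (background 0% of 2194 genes), with a smallest adjusted p of 0.161, and 1 was lower at an unadjusted p below 0.05 with a 2-fold difference. At 15, 30 and 60 min, 5, 71 and 101 of the 138 genes were past a 2-fold fall after ERKi (background 3.29%, 21.9% and 21.3%). After DMSO, 8, 65 and 101 were past it (background 3.98%, 20.8% and 18.5%). Of the 138 genes, 89 are in that background. Lyl1 stood at 5.49, 1.93, 0.444 and 0.167 RPKM at 0, 15, 30 and 60 min after ERKi, and at 4.84, 2.16, 0.294 and 0.126 RPKM after DMSO. Igf1 rose and came back in both: 5.36, 10.6, 31.2 and 9.02 RPKM after ERKi, and 6.68, 12.5, 34.2 and 5.39 RPKM after DMSO. Most of the genes past a 2-fold fall at 30 min were not past it at 15 min, after ERKi and after DMSO.

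In the libraries labelled mRNA from BMDM, the falls were fewer than on chromatin at the early times. With 1 library per time there is no test, and what fraction of the RNA these libraries hold is unsure, as said above. After 0.5, 1, 2 and 6 h of lipid A, 4, 7, 56 and 121 of the 138 genes were past a 2-fold fall from the unstimulated library (background 1.28%, 3.32%, 6.52% and 21.5%). The median differences were -0.02, -0.29, -0.75 and -2.33. After the same times of TNFa, 3, 8, 14 and 93 genes were past it (background 1.16%, 1.81%, 1.82% and 10.2%), with a median of -1.34 at 6 h. All 17 cell cycle genes were past a 2-fold fall at 6 h of lipid A. The 5 genes with 3 or more identical values among the 9 libraries carry little information here; Mir511, for one, was listed at 12.7 RPKM in each.

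The time of the fall differed by gene. Slc26a11 mRNA stood at 25.3 RPKM unstimulated and at 19.8, 8.88, 2.02 and 0.636 RPKM at 0.5, 1, 2 and 6 h of lipid A. It was past a 2-fold fall by 1 h. Gas6 mRNA stood at 150 RPKM unstimulated and at 167, 129, 99.1 and 29.6 RPKM, although its chromatin RNA was low by 0.5 h. Stab1 mRNA stood at 155 RPKM unstimulated and at 163, 143, 107 and 61.9 RPKM, and it was less than 2-fold lower at 2 h. Plau mRNA stood at 36.5 RPKM unstimulated and at 78.4, 151, 45.3 and 4.19 RPKM, so the early rise on chromatin was seen in mRNA too, at its highest at 1 h. Csf1r mRNA stood at 510 RPKM at 6 h of lipid A and at 1311 RPKM at 6 h of TNFa, against 988 RPKM unstimulated. Srsf2 mRNA was not lower, with 108 RPKM at 6 h of lipid A and 92.7 RPKM unstimulated. Igf1 mRNA had 28.0 RPKM at 6 h of lipid A and 58.5 RPKM at 6 h of TNFa, against 60.7 RPKM unstimulated. Lyl1 mRNA had 6.59 RPKM at 6 h of lipid A and 11.9 RPKM at 6 h of TNFa, against 47.7 RPKM unstimulated.

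**Figure D5:**
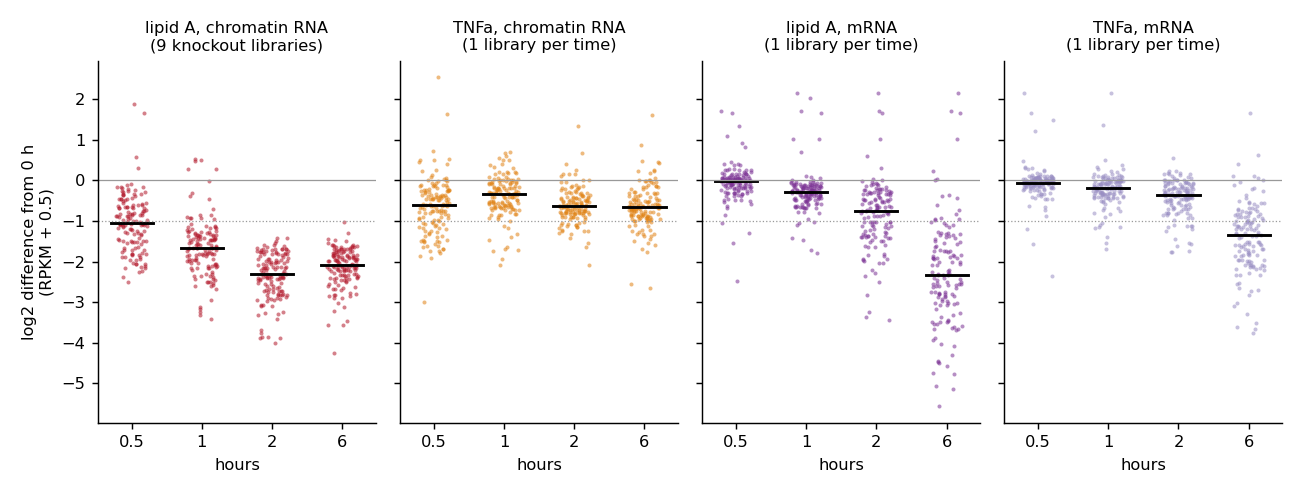
Log2 difference from 0 h (RPKM + 0.5) of each of the 138 genes at 0.5, 1, 2 and 6 h, from left to right for lipid A on chromatin (mean of 9 knockout libraries), TNFa on chromatin, lipid A on mRNA and TNFa on mRNA, with 1 library per time in the last 3. Bars are medians and the dotted line marks a 2-fold fall; the mRNA medians reach -2.33 at 6 h of lipid A and -1.34 at 6 h of TNFa.

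Promoters of the genes, from 250 bases before the start to 50 after it (RefSeq, GRCm38.p6), were searched on both strands for 10 motifs, and 92 of the 138 genes had a promoter in the table. The motif TTTGAA, known as the cell cycle genes homology region (CHR), was in 17 of the 92 (18.5%), against 10.5% of 1235 other genes at 2 RPKM or more and 18.1% of all 27025 promoters. Of the 12 cell cycle genes matched, 9 held it: Kif23, Ccnf, Cdca3, Lbr, Fbxo5, Anln, Skp2, Cdk1 and Top2a. CCAAT was in 54.3%, against 37.4% of the other genes at 2 RPKM and 37.9% of all promoters. The NF-kB motif GGGNNNNNCC was in 70.7%, against 69.8% and 50.4%. The E-box CACGTG was in 15.2%, against 11.7% and 7.24%, the ETS core GAGGAA in 37.0%, against 28.4% and 28.3%, and the ETS motif CGGAAG in 21.7%, against 37.9% and 17.2%. The C/EBP motif TTGCNNNAA was in 8.70%, against 7.04% and 9.55%, and TATAAA was in 7.61%, against 7.37% and 14.2%. The AP-1 motif TGACTCA was in 1 promoter (1.09%), against 3.16% and 5.17%, and the motif TGACGTCA in 0 of 92, against 3.16% and 1.88%. These shares are descriptions of letters in a window.

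The promoters of Cdk1 and Kif23 are shown because the group that holds them shares the CHR letters; capitals mark the match, and each runs from 150 bases before the start to 30 from it, on the minus strand of GRCm38.p6. In Cdk1 the matches begin 71 and 15 bases before the start, and in Kif23 the match begins 2 bases after it.
Cdk1, chr10:69352883-69353062: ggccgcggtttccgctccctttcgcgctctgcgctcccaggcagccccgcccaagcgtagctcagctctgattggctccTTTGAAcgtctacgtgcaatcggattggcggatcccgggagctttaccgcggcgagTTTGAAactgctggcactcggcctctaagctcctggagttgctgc
Kif23, chr9:61946770-61946949: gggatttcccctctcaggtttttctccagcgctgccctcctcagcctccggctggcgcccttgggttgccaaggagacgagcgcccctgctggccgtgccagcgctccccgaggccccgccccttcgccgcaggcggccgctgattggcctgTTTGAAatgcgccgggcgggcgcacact
Both genes were lower at 6 h in the knockout libraries, by 1.98 and 2.69, as given above.

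Lists of related genes, set up for the tissue and the stimulus, hold other genes besides the 138, and the counts here leave the 138 out. They are again from the knockout libraries against 0 h, by limma, beside the background of 21.6% lower at 2 h and 14.3% at 6 h. That background keeps the 138: of 3898 genes tested, 842 fell at 2 h and 558 at 6 h. At each time 129 of those that fell were among the 138. Over the same 3898 genes, 454 rose at 2 h and 422 at 6 h. Of 7 other cell cycle genes tested, 4 fell at 2 h and 4 at 6 h, with medians of -1.12 and -1.48. Of 10 other lysosome genes, 5 fell at 2 h and 1 at 6 h (medians -1.06 and -0.36). Of 7 other scavenger and efferocytosis receptors and their ligands, 2 fell and 3 rose at 2 h, and 2 fell and 2 rose at 6 h, so that Gas6, Mrc1 and Stab1 make up the rest of that list. Of 7 other genes of cholesterol efflux and LXR targets, 4 fell and 1 rose at 2 h, and 1 fell and 1 rose at 6 h (medians -1.56 and -0.21). Of 8 other macrophage transcription factors, 2 fell and 2 rose at 2 h, and 2 fell and 1 rose at 6 h (medians -0.51 and 0.16). Of 48 other solute carriers, 20 fell and 2 rose at 2 h, and 7 fell and 4 rose at 6 h (medians -0.76 and -0.43). Of 38 other zinc finger genes, 5 fell and 2 rose at 2 h, and 0 fell and 2 rose at 6 h (medians -0.52 and -0.28).

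Of 13 other chemoattractant and other G protein-coupled receptors, 4 fell and 4 rose at 2 h, and 1 fell and 4 rose at 6 h (medians -0.23 and 0.04). Of 12 other cytokine and growth factor receptors, 3 fell and 0 rose at 2 h by limma, and 1 fell and 2 rose at 6 h (medians -0.08 and 0.32). Of 10 Toll-like receptors and adaptors, none of them among the 138, 1 fell and 4 rose at 2 h, and 2 fell and 2 rose at 6 h (medians -0.25 and 0.50). Of 8 other FOXO targets and growth-restraint genes, 3 fell and 1 rose at 2 h and 1 fell at 6 h (medians -0.93 and -0.32). Of 3 circadian clock genes, 1 fell at 2 h and 2 at 6 h (medians -0.96 and -1.01), and of 4 genes of the TGF-beta pathway, 3 fell at 2 h and 2 at 6 h (medians -1.23 and -0.68). Of 11 PI3K and phosphoinositide genes, 3 fell and 2 rose at 2 h and 3 rose at 6 h (medians -0.62 and -0.53). The lists differ in size and the differences between them were not tested.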

How the data were processed

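Chromatin-associated RNA of bone marrow-derived macrophages was fractionated and sequenced from stranded libraries, per the labels' protocols. Other libraries are labelled polyA, but their labels describe chromatin extraction too; they were treated as whole-cell mRNA, which is unsure. The submitters' processing notes name HISAT2, SAMtools and the mouse build mm9; versions and the counter are not given in the sources used here. The authors deposited 1 table of RPKM values for 15196 genes in 136 libraries (113 of chromatin, 23 of polyA RNA), with each gene's chromosome, start and end. The deposited positions are in mm9; the starts count from 0, since end minus start equals the hairpin length for 5 of 5 microRNA genes, and are printed counting from 1. Low values of 97.5% to 100% of the genes checked per chromatin library came out as whole reads within 0.02 when multiplied by the gene's span, which gave the depths; RPKM on chromatin is therefore per kilobase of span. Depth of the 9 mRNA libraries was not recovered.

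Tests used limma 3.58.1 in R 4.3.3 (trend, empirical Bayes) on log2(RPKM + 0.5), over genes at 1 RPKM or more in at least as many libraries as the smallest group, with Benjamini-Hochberg adjustment over all genes tested. A call needed an adjusted p below 0.05 and a 2-fold difference. The knockout fit held 9 knockout libraries per time, with the series as a covariate; each series was also fitted with its genotypes and times, and the change since 0 h was compared between genotypes by an interaction term. Experiments with 1 library per time were not tested: a gene was counted when past 2-fold, with genes at 1 RPKM or more as background. Tables were made with Python 3.11.15, pandas 2.3.3, numpy 2.4.6 and matplotlib 3.10.9, and the fits were tested on simulated data. The replicate numbers within a series pair the samples: deviations from the group means of samples with 1 number correlated in every series, between 0.68 and 0.93 for Nfkbid, 0.27 and 0.76 for Bcl3, 0.45 and 0.73 for Nfkbiz, and 0.61 and 0.92 for Nfkb1. The main fits, and the SEs and p-values given from them, do not use this pairing. It enters only where a replicate block is named.

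The 138 genes and the gene lists were chosen with earlier results of these data known. The rule for named genes took the 10 genes with the lowest mean of the 2 ratios, the 8 with the highest level at 0 h, those on the gene lists, up to 5 per direction with the largest called difference in each knockout contrast, the 5 most above lipid A after TNFa, and the 3 on each side of the limit. It named 41 of the 138 genes and 3 others; further genes in the text, and the groups by role, were picked after their values were seen. Alternatives were other pseudocounts and filters, centring, a replicate block, leaving out replicates and series, and each knockout alone.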

Additional observations from a re-analysis of the deposited data

Results flagged for a closer look

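Over the 138 genes, replicate 1 of Nfkb1-/- at 0 h stood apart from the other 8 knockout libraries at that time, with a median level of 1.02 on the log2(RPKM + 0.5) scale, against 2.06 to 2.43 in the others. Hpgds, for one, was at 1.64 RPKM there. Without replicate 1 of Nfkb1-/-, 77, 121, 136 and 136 genes had fallen at 0.5, 1, 2 and 6 h in the knockout libraries. With it the counts were 63, 112, 129 and 129, all of 129 tested genes. The filter follows the smallest group, so more genes were tested without that replicate, and the counts cannot be compared directly. Replicate 2 of Bcl3-/- at 6 h had a median level of 0.20, the highest of the 9 knockout libraries, against -0.19 to -0.02 in the others. Over the named genes, 410 groups of 9 libraries were examined in the same way and 52 held a library that stood apart, which was replicate 1 of the Nfkb1 series in 20 of them. That replicate also holds the shallowest chromatin libraries; the part of depth in these values was not tested.

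The change since 0 h at 6 h of lipid A differed between Nfkbiz-/- and wild-type libraries for 4 of the 138 genes (limma interaction, Benjamini-Hochberg adjusted p below 0.05, 2-fold). The difference was 2.29 ± 0.40 for Lfng (SE; adjusted p = 0.00442), 1.77 ± 0.30 for Arl4c (adjusted p = 0.00350), 1.01 ± 0.26 for Metrnl (adjusted p = 0.0449) and -1.78 ± 0.34 for Hpgds (adjusted p = 0.00787), each with 2 replicates per genotype. For all 4 genes both replicates of 1 genotype lay outside the range of the other at 6 h. The same values gave the calls, so this adds nothing to them, and the share of such non-overlap over all genes was not counted. For the interaction itself, 1.13% of the 4885 genes tested were called higher and 1.82% lower. An excess among the 138 genes was not tested.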

How the results depend on the processing

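Of 219 values of the 29 counts under other settings, 179 stayed within 1.5 times the main count, and of 1811 values of 122 single differences, 1703 kept their call; 0 changed sign. With a filter of 3 RPKM, 65 genes were tested in the knockout libraries, and 26, 52, 65 and 65 had fallen at 0.5, 1, 2 and 6 h. Centring each library gave 34 at 0.5 h, and the Bcl3-/- libraries alone, an alternative chosen after seeing the data, gave 96. Leaving out each replicate gave 54 to 77, 109 to 121, 127 to 136 and 126 to 136, with the number of genes tested changing too. The wild-type step to 1 h held 67 falls with a pseudocount of 0.1, 24 with 1, and 37 to 43 without each replicate. In the Nfkb1 series the count of called genes was 0 with a pseudocount of 1, 2 when centred, 2 with the replicate block and 0 to 2 without each replicate. In the Nfkbiz series it was 28 with a pseudocount of 0.1, 6 with 1, 7 with no filter and 6 to 15 without each replicate. At 6 h the lower genes were 17, 3, 2 and 3 with a pseudocount of 0.1, of 1, no filter and centring, and 1 to 11 without each replicate. The higher genes at 6 h were 10 and 3 with pseudocounts of 0.1 and 1, 11 when centred and 4 to 5 without each replicate. The replicate block gave 7 lower and 7 higher there. It added the calls of Cd9 in the Nfkb1 series and of Mrc1 and Stab1 in the Nfkbiz series, and changed no other call. Calls in the Bcl3 series were 0 to 32 without each replicate, and in the Nfkbid series 0 in each. The rule kept 225 genes with a pseudocount of 0.1 and 85 with 1. Past 2-fold after TNFa on chromatin were 23 at 1 h, 40 at 2 h and 44 at 6 h with a pseudocount of 0.1, and 11 at 2 h and 15 at 6 h with 1. In mRNA, 5 were past it at 0.5 h of TNFa with 0.1. The cause of these moves was not tested, beyond the smaller number of genes under a stricter filter. The J2 count was 33 to 41 without each double-knockout culture. The cells labelled IkBz OE and Control had 1 library each, so none could be left out. Low levels limit the precision: at 2 h many of the genes rest on few reads.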
